A study of Mus musculus with 6 samples.

Results

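The 9 nuclear hormone receptor genes Vdr, Nr3c1, Thra, Thrb, Rxra, Esr1, Ppard, Ppara and Pparg were followed through 3 cell populations of the mouse hair follicle. All probe sets whose platform gene symbol was one of these 9 were taken, which gave 24 probe sets of 45037 tested and 9 genes of 18193 with a probe set of their own. The probe sets were taken by symbol alone, but the 9 receptors themselves were chosen with earlier results of these data known. The arrays were made for a study of chromatin in this lineage, and flow cytometry purified the cells out of back skin from untreated female CD-1 mice. Transient-amplifying matrix cells (HF-TAC), the dividing cells at the base of the growing follicle, came from postnatal days 28 to 30 and were sorted on GFP, integrin α6 and ephrinB1. Activated hair follicle stem cells (aHF-SC) came from the same ages and were sorted on GFP, integrin α6 and CD34. Quiescent hair follicle stem cells (qHF-SC) came from postnatal days 52 to 60 and were sorted on integrin α6 and CD34 without GFP. The labels do not state what carried the GFP or which side of each marker was gated. Age and sorting scheme therefore differ between qHF-SC and both other groups, and cannot be told apart from cell state. Each group had 2 arrays. Whether the pair stems from separate animals is not labelled, and the p-values then cover only array-to-array spread, which could be technical.

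Nuclear receptors are transcription factors that a small lipid-soluble ligand switches between repression and activation of their target genes. Vdr, Thra, Thrb and the Ppar receptors bind DNA as pairs with a retinoid X receptor such as Rxra, while Nr3c1 and Esr1 wait with chaperones and act as pairs of themselves. In skin, loss of Vdr is known to stop hair follicles from cycling after the first coat, glucocorticoids acting through Nr3c1 and oestrogen acting through Esr1 hold back hair growth, thyroid hormone affects follicle cycling, and Pparg is known from sebaceous glands and fat.

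The markers of the labelled cells were present. Cd34, a sorting marker of the bulge, had intensities of 15.3 and 25.7 in HF-TAC, 2385 and 3250 in aHF-SC and 7186 and 8557 in qHF-SC, and all 11 bulge markers fell in HF-TAC against aHF-SC. Of 10 matrix markers measured, 6 rose in HF-TAC against aHF-SC and 9 rose against qHF-SC. The bulge list includes Cd34 and Itga6 and the matrix list includes Efnb1, which are genes of the sorting markers. Their differences are not independent of the sort. Of 11 markers of the upper follicle and sebaceous gland, 6 rose in HF-TAC against aHF-SC and 4 against qHF-SC, and their summed intensity was 29583 to 44723 in HF-TAC, 5326 to 6684 in aHF-SC and 6776 to 9745 in qHF-SC. Of 10 differentiated keratinocyte markers, 6 rose in HF-TAC against aHF-SC and 3 against qHF-SC, while 3 fell in aHF-SC against qHF-SC, and their sum was 38638 to 51750 in HF-TAC, 26612 to 31939 in aHF-SC and 38841 to 39618 in qHF-SC. Of 8 muscle and pericyte markers, 3 fell in HF-TAC against aHF-SC and 3 rose in aHF-SC against qHF-SC, namely Acta2, Tagln and Myl9, and their sum was 497 to 699 in HF-TAC, 2970 to 5582 in aHF-SC and 458 to 521 in qHF-SC. Among 8 dermal fibroblast markers, 1 rose in HF-TAC against aHF-SC, 1 rose and 1 fell in HF-TAC against qHF-SC, and 1 rose in aHF-SC against qHF-SC. Dcn, a matrix proteoglycan, had 3646 and 5927 in HF-TAC, 53.2 and 86.8 in aHF-SC and 28.8 and 16.6 in qHF-SC. Col1a2, a collagen, had 61.1 and 157 in HF-TAC, 133 and 173 in aHF-SC and 278 and 381 in qHF-SC. Col3a1, another collagen, had 41.8 and 166 in HF-TAC, 94.1 and 302 in aHF-SC and 48.8 and 55.3 in qHF-SC. Lum, Dpt and Pdgfra were at background in all 3 groups. Of 18 immediate early and heat shock genes that cell dissociation can induce, 12 rose in aHF-SC and 12 in HF-TAC, each against qHF-SC. The part of all these marker changes in the receptor results was not tested. In sorted bulk RNA, fewer cells of a type and less RNA per cell cannot be told apart.

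Values below are the deposited intensities, and differences are on the log2 scale with the standard error (SE) of a limma fit over all probe sets. Adjusted p is by Benjamini-Hochberg over all 45037 probe sets, two-sided, with a threshold of 0.05. A group was called at background where the mean of its log2 values was at or below that of an intensity of 44.7, the 90th percentile of 56 probe sets of genes of other organs. Against a group at background a difference rests on dim values, and the value with intensities under 32 set to 32 is given where it moves it. By this measure 10 of the 24 receptor probe sets were at background in all 3 groups, among them all 3 of Esr1 and the single ones of Thrb and Pparg.

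**Figure D1:**
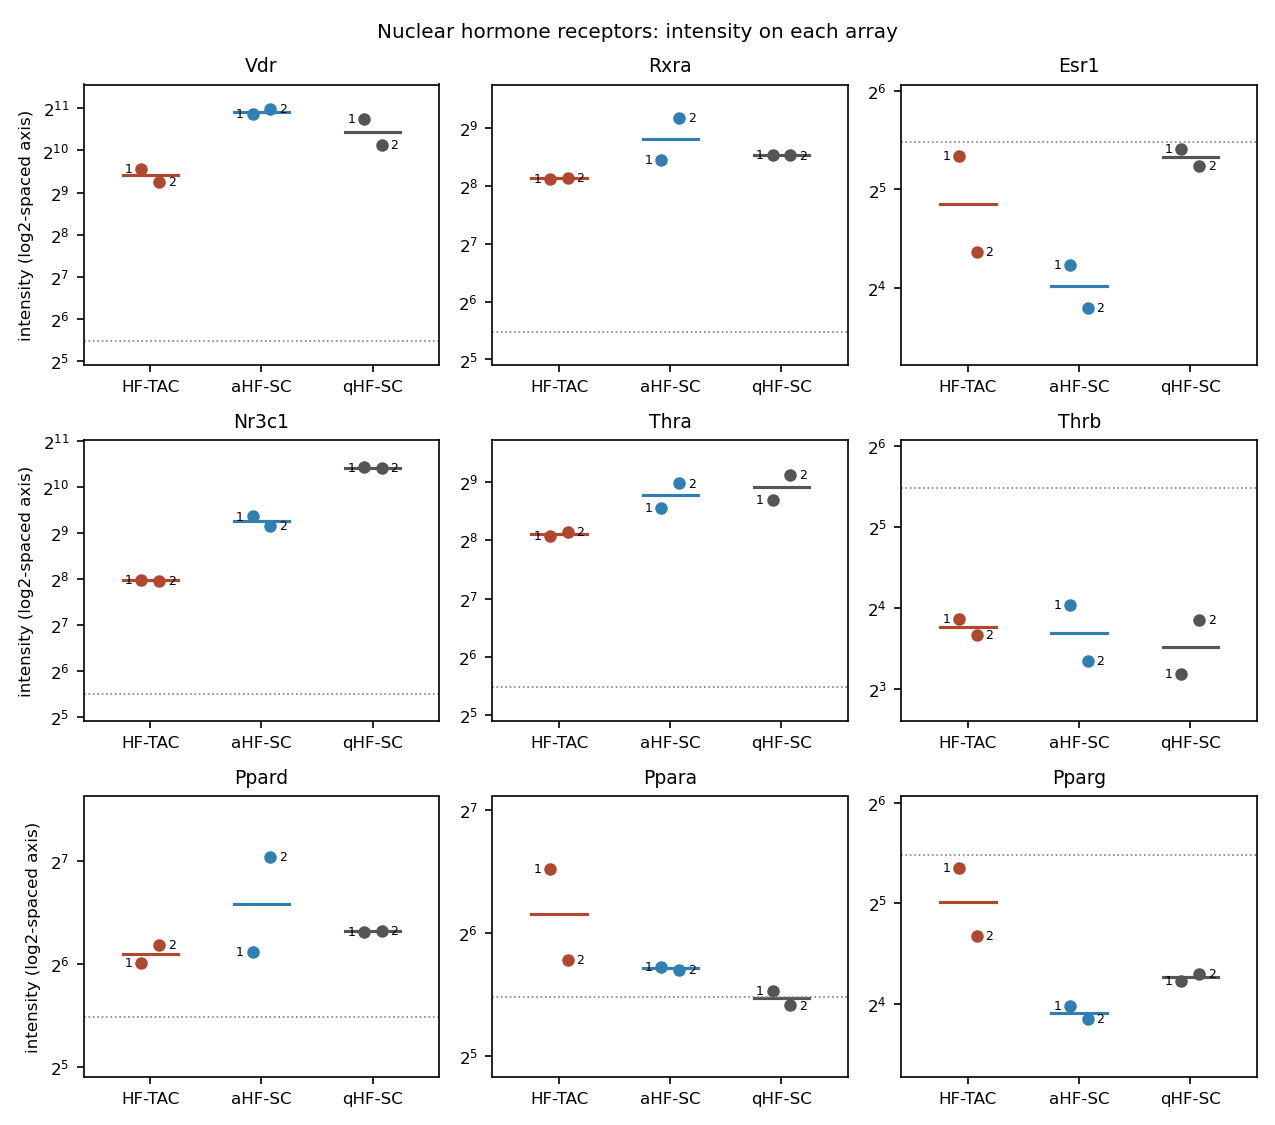
Intensity of the probe set with the highest mean for each of the 9 receptors (vertical axis, log2-spaced, arbitrary units) on the 2 arrays of HF-TAC, aHF-SC and qHF-SC. Points are arrays, marked with their replicate number, lines are means of the log2 values, and the dotted line is the background intensity of 44.7. Vdr is low in HF-TAC, Nr3c1 is in steps over the 3 groups, and Esr1, Thrb and Pparg lie under the dotted line.

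Vdr, the receptor for active vitamin D, was lower in matrix cells than in both stem cell groups. The brighter probe set (1418176_at) had intensities of 753 and 613 in HF-TAC, 1861 and 2022 in aHF-SC and 1733 and 1128 in qHF-SC. Both HF-TAC arrays were below all 4 stem cell arrays. The second probe set (1418175_at) had 597 and 456 in HF-TAC, 1466 and 1541 in aHF-SC and 1258 and 954 in qHF-SC, with the same order of groups. In HF-TAC against aHF-SC, Vdr fell by 1.51 ± 0.23 (2.85-fold lower, adjusted p = 0.00499) on the brighter probe set and fell by 1.53 ± 0.20 (adjusted p = 0.00297) on the second. Against qHF-SC it fell by 1.04 ± 0.23 (adjusted p = 0.0147) and fell by 1.07 ± 0.20 (adjusted p = 0.00769). Between aHF-SC and qHF-SC the brighter probe set differed by 0.47 ± 0.23, with a 95% interval of -0.05 to 1.0 and an adjusted p of 0.336. Thus aHF-SC and qHF-SC did not differ beyond the threshold, although the arrays of aHF-SC were above those of qHF-SC on both probe sets. The fall against aHF-SC passed without any 1 array, but the fall against qHF-SC rested on single arrays. Without qHF-SC replicate 1 it was -0.73 (adjusted p = 0.0746) on the brighter and -0.87 (adjusted p = 0.0552) on the second probe set. Leaving out HF-TAC replicate 2 gave -0.89 on the brighter (adjusted p = 0.0825).

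The 250 bases before the annotated start of Vdr are shown because it is the receptor that fell in HF-TAC against both stem cell groups and has a window in the RefSeq promoter table of build GRCm38.p6. The window lies at chr15:97908297-97908546 on the minus strand, outside the transcript, and capitals mark the GC box GGGCGG, searched on both strands.
Vdr: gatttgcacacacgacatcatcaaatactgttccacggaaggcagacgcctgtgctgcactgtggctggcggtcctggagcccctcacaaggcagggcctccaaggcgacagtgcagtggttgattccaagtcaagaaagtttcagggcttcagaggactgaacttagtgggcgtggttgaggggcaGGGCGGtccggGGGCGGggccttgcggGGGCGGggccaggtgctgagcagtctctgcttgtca
It holds 3 GC boxes and no TATAAA, and 61.2% of its bases are G or C. A GC box was in 33.0% of all 32526 windows of this length and TATAAA in 12.3%. In all, 7 of the 9 receptors had 12 windows in the table, and Nr3c1 and Thra had none. Full response elements were searched as the hexamer AGGTCA repeated with 1 base between (PPAR), 3 bases (vitamin D) or 4 bases (thyroid hormone), as AGGTCA and TGACCT 3 bases apart (oestrogen), and as AGAACA and TGTTCT 3 bases apart (glucocorticoid), on both strands. Each was in 0 of these 12 windows, and in at most 0.0338% of all windows. No match says only that these letters are not in this stretch.

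Nr3c1, the glucocorticoid receptor, was highest in quiescent stem cells, lower in activated stem cells and lowest in matrix cells. Its brightest probe set (1460303_at) had intensities of 250 and 248 in HF-TAC, 653 and 565 in aHF-SC and 1366 and 1358 in qHF-SC. No array of one group overlapped another, and replicates differed by far less than the steps between groups. It fell by 1.29 ± 0.15 in HF-TAC against aHF-SC (adjusted p = 0.00187). It fell by 1.17 ± 0.15 in aHF-SC against qHF-SC (adjusted p = 0.00828) and fell by 2.45 ± 0.15 in HF-TAC against qHF-SC (5.47-fold lower, adjusted p = 6.74e-05). A second probe set (1421867_at) gave 224 and 191 in HF-TAC, 436 and 389 in aHF-SC and 926 and 872 in qHF-SC. Another (1457635_s_at) gave 127 and 114 in HF-TAC, 291 and 200 in aHF-SC and 655 and 609 in qHF-SC. Both fell in all 3 comparisons. In HF-TAC against qHF-SC the first fell by 2.12 ± 0.16 (adjusted p = 0.000141) and the other fell by 2.39 ± 0.20 (adjusted p = 0.000239).

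The other probe sets of Nr3c1 were dimmer and did not all show these steps. Probe set 1453860_s_at had 38.6 and 41.6 in HF-TAC, 61.6 and 55.1 in aHF-SC and 59.2 and 64.5 in qHF-SC, so that its aHF-SC and qHF-SC arrays overlapped (difference -0.08 ± 0.15, adjusted p = 0.859). In HF-TAC against qHF-SC it fell by 0.62 ± 0.15 (adjusted p = 0.0227), and missed the threshold without any 1 of the 4 arrays compared (-0.69 to -0.56, adjusted p 0.0628 to 0.12). Probe set 1421866_at, at background in every group, had 14.8 and 11.5 in HF-TAC, 29.0 and 25.9 in aHF-SC and 42.4 and 43.4 in qHF-SC. It fell by 1.07 ± 0.17 in HF-TAC against aHF-SC (adjusted p = 0.00694) and by 1.72 ± 0.17 in HF-TAC against qHF-SC (adjusted p = 0.000489). With values under 32 set to 32 the difference against aHF-SC was 0.0. All arrays of HF-TAC and aHF-SC then held the same value, and either group differed from qHF-SC by -0.42. Probe set 1431378_at, also at background, lay between 21.7 and 29.9 on all 6 arrays. Nr3c1 averaged over its 6 probe sets fell by 1.56 in HF-TAC against qHF-SC (adjusted p = 0.000411). The step between the stem cell groups lay close to the threshold when 1 array was left out. Without qHF-SC replicate 2 it was -1.17 on both 1460303_at (adjusted p = 0.071) and 1421867_at (adjusted p = 0.0809) and -1.44 on 1457635_s_at (adjusted p = 0.0924). Without qHF-SC replicate 1 it was -1.08 on 1421867_at (adjusted p = 0.0555) and -1.34 on 1457635_s_at (adjusted p = 0.0656), and without aHF-SC replicate 2 it was -1.04 on 1421867_at (adjusted p = 0.0626). In HF-TAC against aHF-SC, 1457635_s_at alone of the 3 brighter probe sets missed the threshold, at -0.73 when aHF-SC replicate 1 was left out (adjusted p = 0.0762) and at -0.92 when HF-TAC replicate 2 was (adjusted p = 0.0895).

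Thra, the main thyroid hormone receptor outside liver and pituitary, was lower in matrix cells than in quiescent stem cells on its brightest probe set. This probe set (1454675_at) had intensities of 269 and 282 in HF-TAC, 378 and 504 in aHF-SC and 413 and 559 in qHF-SC. The HF-TAC arrays were below all others, while aHF-SC and qHF-SC overlapped. Thra fell by 0.80 ± 0.21 in HF-TAC against qHF-SC (1.75-fold lower, adjusted p = 0.0304), and in HF-TAC against aHF-SC the difference was -0.67 ± 0.21 (adjusted p = 0.09). The 2 other probe sets of Thra had the HF-TAC arrays lowest too, but passed in no comparison: 1443952_at had 110 and 148 in HF-TAC, 165 and 276 in aHF-SC and 199 and 210 in qHF-SC, and 1426997_at had 87.6 and 105 in HF-TAC, 116 and 174 in aHF-SC and 149 and 147 in qHF-SC. The call for Thra was lost when 1 of 3 arrays was left out, namely qHF-SC replicate 2 (-0.59, adjusted p = 0.176), HF-TAC replicate 1 (-0.77, adjusted p = 0.108) or HF-TAC replicate 2 (-0.84, adjusted p = 0.0923), and for the mean of its 3 probe sets (-0.70, adjusted p = 0.0511). Thrb, the second thyroid hormone receptor, was at background on all arrays, with 14.6 and 12.7 in HF-TAC, 16.4 and 10.2 in aHF-SC and 9.09 and 14.4 in qHF-SC, and its groups overlapped in all 3 comparisons.

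Rxra, a partner of Vdr and of the thyroid hormone and Ppar receptors, passed in no comparison. Its brightest probe set (1454773_at) had 278 and 283 in HF-TAC, 350 and 576 in aHF-SC and 370 and 369 in qHF-SC. Replicate 2 of aHF-SC stood above the other 5 arrays. The difference in HF-TAC against aHF-SC was -0.68 ± 0.23 (adjusted p = 0.116). It was -1.04 when aHF-SC replicate 1 was left out and -0.32 when aHF-SC replicate 2 was, so that its size depended on single arrays. A second probe set of Rxra (1425762_a_at) had 111 and 98.7 in HF-TAC, 92.0 and 132 in aHF-SC and 82.7 and 100.2 in qHF-SC, so that all groups overlapped, and the third (1430497_at) was at background, between 7.94 and 12 on all arrays. The 95% intervals of the brightest probe set reached from -1.21 to -0.14 for HF-TAC against aHF-SC and from -0.93 to 0.14 for HF-TAC against qHF-SC. At 2 arrays a group these intervals leave room for a fall as well as for no difference in HF-TAC against qHF-SC.

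Esr1, the oestrogen receptor alpha, was at background on average in every group. Its brightest probe set (1460591_at) had 40.5 and 20.6 in HF-TAC, 18.8 and 13.9 in aHF-SC and 42.7 and 37.8 in qHF-SC. The aHF-SC arrays were the lowest, and the HF-TAC arrays lay apart from each other. The difference in aHF-SC against qHF-SC was -1.32 ± 0.31 (adjusted p = 0.0571). Over the other settings of the fit its adjusted p went as low as 0.0155 when only these 2 groups were fitted. With values under 32 set to 32 the difference was -0.33 (adjusted p = 0.271). For the mean of the 3 probe sets of Esr1 it was -0.63 (adjusted p = 0.203). Esr1 probe set 1421244_at lay between 8.26 and 13.6 on all arrays and 1435663_at between 5.03 and 9.88.

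The 3 Ppar receptors, which sense fatty acids and their derivatives, were dim. Ppard, the form common in skin epithelium, had 64.6 and 72.9 in HF-TAC, 69.6 and 132 in aHF-SC and 79.6 and 80.2 in qHF-SC on its brighter probe set (1439797_at). Here too aHF-SC replicate 2 was the highest array, and no comparison passed (adjusted p 0.395 to 0.726). Ppara, which drives fatty acid oxidation in liver, had 92.0 and 55.1 in HF-TAC, 52.8 and 52.1 in aHF-SC and 46.3 and 42.6 in qHF-SC on probe set 1449051_at. A second probe set of Ppara (1439675_at) had 73.3 and 36.7 in HF-TAC, 26.0 and 25.3 in aHF-SC and 30.4 and 21.1 in qHF-SC. On both, the HF-TAC arrays were above all others and HF-TAC replicate 1 was the highest. The differences in HF-TAC against qHF-SC were 0.68 ± 0.24 (adjusted p = 0.0876) and 1.04 ± 0.32 (adjusted p = 0.0594), and neither passed. Without HF-TAC replicate 2 they were 1.05 (adjusted p = 0.011) and 1.54 (adjusted p = 0.00841), and without HF-TAC replicate 1 they were 0.31 and 0.54. Probe set 1439675_at also passed with centring on the 75th percentile (1.01, adjusted p = 0.0443), with the filter on dim probe sets (adjusted p = 0.0465) and with a trended robust prior (adjusted p = 0.042). For the mean of the 3 probe sets of Ppara the difference was 0.68 (adjusted p = 0.137). In HF-TAC against aHF-SC 1439675_at differed by 1.02 (adjusted p = 0.0922), or by 0.70 with values under 32 set to 32 (adjusted p = 0.208). The qHF-SC arrays were also all under 32, so that this floor gave 0.70 in HF-TAC against qHF-SC too. The remaining probe sets were at background in all 3 groups, between 21.8 and 25.1 on the 6 arrays for Ppard (1425703_at) and between 20.9 and 43.8 for Ppara (1457721_at).

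Pparg, the regulator of fat cell and sebocyte differentiation, was the receptor that rose in a comparison, at intensities that were at background in each group. Its probe set (1420715_a_at) had 41.0 and 25.5 in HF-TAC, 15.7 and 14.4 in aHF-SC and 18.7 and 19.7 in qHF-SC. Both HF-TAC arrays were above all stem cell arrays, and HF-TAC replicate 1 was the higher. Pparg rose by 1.11 ± 0.23 in HF-TAC against aHF-SC (adjusted p = 0.0192). Against qHF-SC the difference in HF-TAC was 0.76 ± 0.23 (adjusted p = 0.0532). With values under an intensity of 32 set to 32 the rise was 0.18 (adjusted p = 0.461). Leaving out aHF-SC replicate 1 gave 1.17 (adjusted p = 0.068), and leaving out aHF-SC replicate 2 gave 1.04 (adjusted p = 0.111).

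Some markers of the upper follicle rose in HF-TAC as Pparg did. Krt79, a keratin of the upper follicle, had 11190 and 6644 in HF-TAC, 399 and 241 in aHF-SC and 257 and 307 in qHF-SC. Gata6, a transcription factor of the upper follicle and sebaceous duct, had 553 and 233 in HF-TAC, 26.0 and 26.6 in aHF-SC and 40.0 and 49.0 in qHF-SC. For both, as for Pparg and Ppara, HF-TAC replicate 1 was the higher of its pair. Other genes of the same list of 11 had other orders. Scd1, a desaturase of sebocytes, had 2061 and 2189 in HF-TAC, 684 and 594 in aHF-SC and 1350 and 2297 in qHF-SC, so that HF-TAC overlapped with qHF-SC. Scd3, a sebocyte form of the same enzyme, had 28.8 and 27.1 in HF-TAC, 26.1 and 21.4 in aHF-SC and 31.5 and 184 in qHF-SC, and Mc5r, a melanocortin receptor of sebaceous glands, lay between 10.6 and 15.1 on all arrays. Of the list, 6 rose in HF-TAC against aHF-SC, the comparison in which Pparg rose, and 4 against qHF-SC. Among 7 fat cell markers, 6 were at background in all 3 groups, and Adipoq, an adipocyte hormone, lay between 5.84 and 8.04 on all arrays. The exception was Fabp4, a fatty acid carrier of adipocytes and sebocytes, with 716 and 523 in HF-TAC, 32.3 and 59.6 in aHF-SC and 140 and 12.1 in qHF-SC, so that 1 array of each stem cell group was above the background intensity. The part of upper follicle cells in the Pparg result was not tested.

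**Figure D2:**
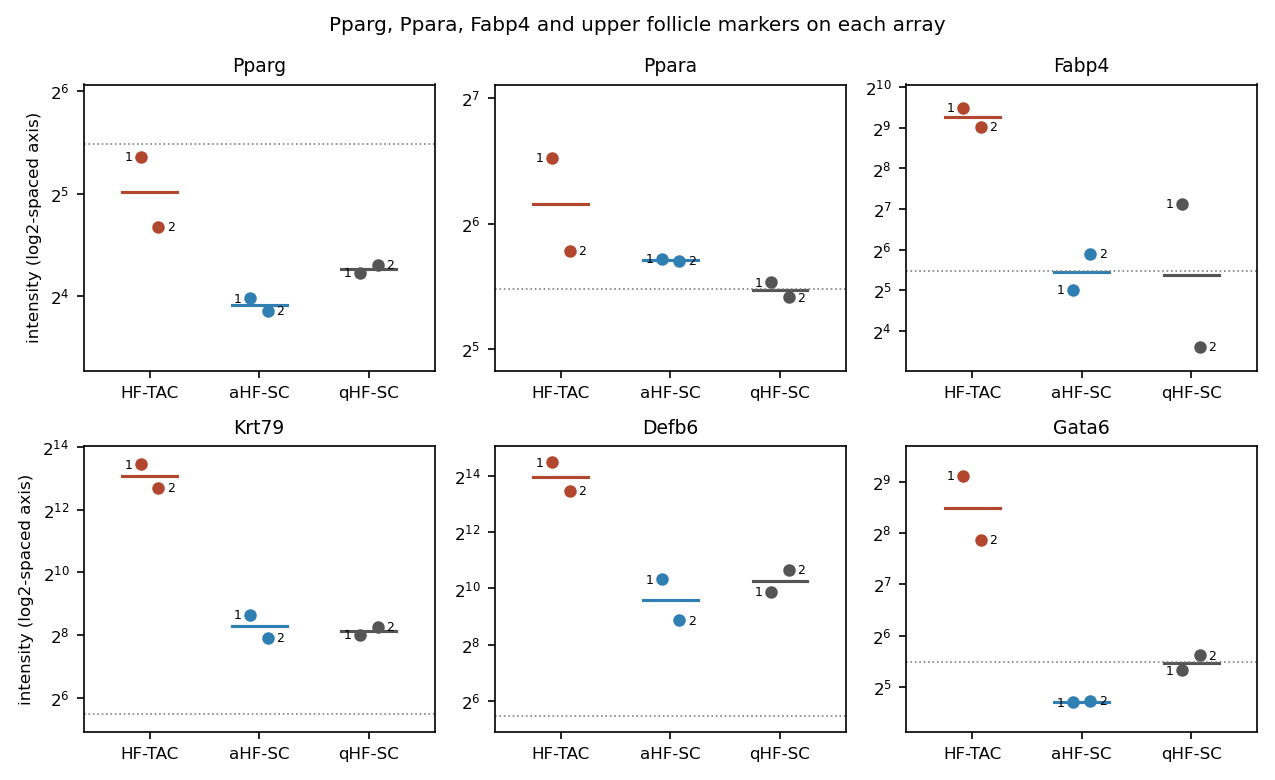
Intensity (vertical axis, log2-spaced, arbitrary units) of Pparg, Ppara, Fabp4, Krt79, Defb6 and Gata6 on the 2 arrays of HF-TAC, aHF-SC and qHF-SC. Points are arrays marked with their replicate number, lines are means of the log2 values, and the dotted line is the background intensity of 44.7. In all 6 panels HF-TAC replicate 1 is the highest of the 6 arrays.

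The window before the most upstream annotated start of Pparg is shown because it is the gene that rose. It lies at chr6:115360894-115361143 on the plus strand of GRCm38.p6 in the RefSeq table, and capitals mark the GC box GGGCGG and the receptor hexamer AGGTCA, each searched on both strands.
Pparg: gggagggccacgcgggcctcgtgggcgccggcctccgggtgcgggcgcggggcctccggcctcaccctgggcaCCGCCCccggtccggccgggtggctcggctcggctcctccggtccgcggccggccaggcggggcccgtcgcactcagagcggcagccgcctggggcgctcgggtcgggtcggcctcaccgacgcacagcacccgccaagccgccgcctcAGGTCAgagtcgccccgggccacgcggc
It holds 1 GC box, 1 hexamer and no TATAAA, and 82.4% of its bases are G or C, against a median of 52.4% over all windows. The hexamer was in 14.0% of all windows. The Pparg window from 115362099 holds 2 GC boxes, 1 hexamer and 1 TATAAA at 63.6% G or C. The one from 115421816 holds none of these at 40.8% G or C. Which of the annotated starts of Pparg was in use was not measured by these arrays.

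In HF-TAC against aHF-SC, 1 of the 24 probe sets rose and 6 fell, where 11.5% of all probe sets were called (5.98% higher and 5.48% lower). In HF-TAC against qHF-SC, 0 rose and 8 fell, where 20.1% were called (10.3% higher and 9.78% lower). Without HF-TAC replicate 2 these counts were 5 higher and 5 lower against aHF-SC, and 4 higher and 5 lower against qHF-SC, where the higher ones were all 3 probe sets of Ppara, the one of Pparg and, against aHF-SC, 1460591_at of Esr1. In aHF-SC against qHF-SC, 0 rose and 3 fell, all 3 of Nr3c1, where 5.02% were called (2.35% higher and 2.66% lower). At an unadjusted p under 0.05 by limma the counts of the 24 were 14 in HF-TAC against aHF-SC, 14 in HF-TAC against qHF-SC and 6 in aHF-SC against qHF-SC, beside 22.4%, 30.4% and 17.9% of all probe sets. The probe sets of a gene measure the same transcripts, so that counted by gene 1 rose and 2 fell of 9 in HF-TAC against aHF-SC, 0 rose and 3 fell in HF-TAC against qHF-SC, and 0 rose and 1 fell in aHF-SC against qHF-SC. Over all genes 16.3% were called in HF-TAC against aHF-SC (8.25% higher and 8.06% lower), 25.7% in HF-TAC against qHF-SC (13.1% higher and 12.6% lower) and 6.3% in aHF-SC against qHF-SC (3.08% higher and 3.22% lower). Groups whose arrays did not overlap were common among all probe sets, as 2 arrays a group allow. In HF-TAC against aHF-SC 4 of the 24 lay higher without overlap and 11 lower, beside 23.8% and 25.4% of all probe sets. In HF-TAC against qHF-SC 4 lay higher and 14 lower, beside 26.4% and 30.4%. In aHF-SC against qHF-SC 3 lay higher and 7 lower, beside 22.7% and 24.7%. The median difference of the 9 genes in HF-TAC was -0.48 against aHF-SC and -0.40 against qHF-SC, beside -0.01 over all genes in both. The comparisons share arrays and are not independent of each other.

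**Figure D3:**
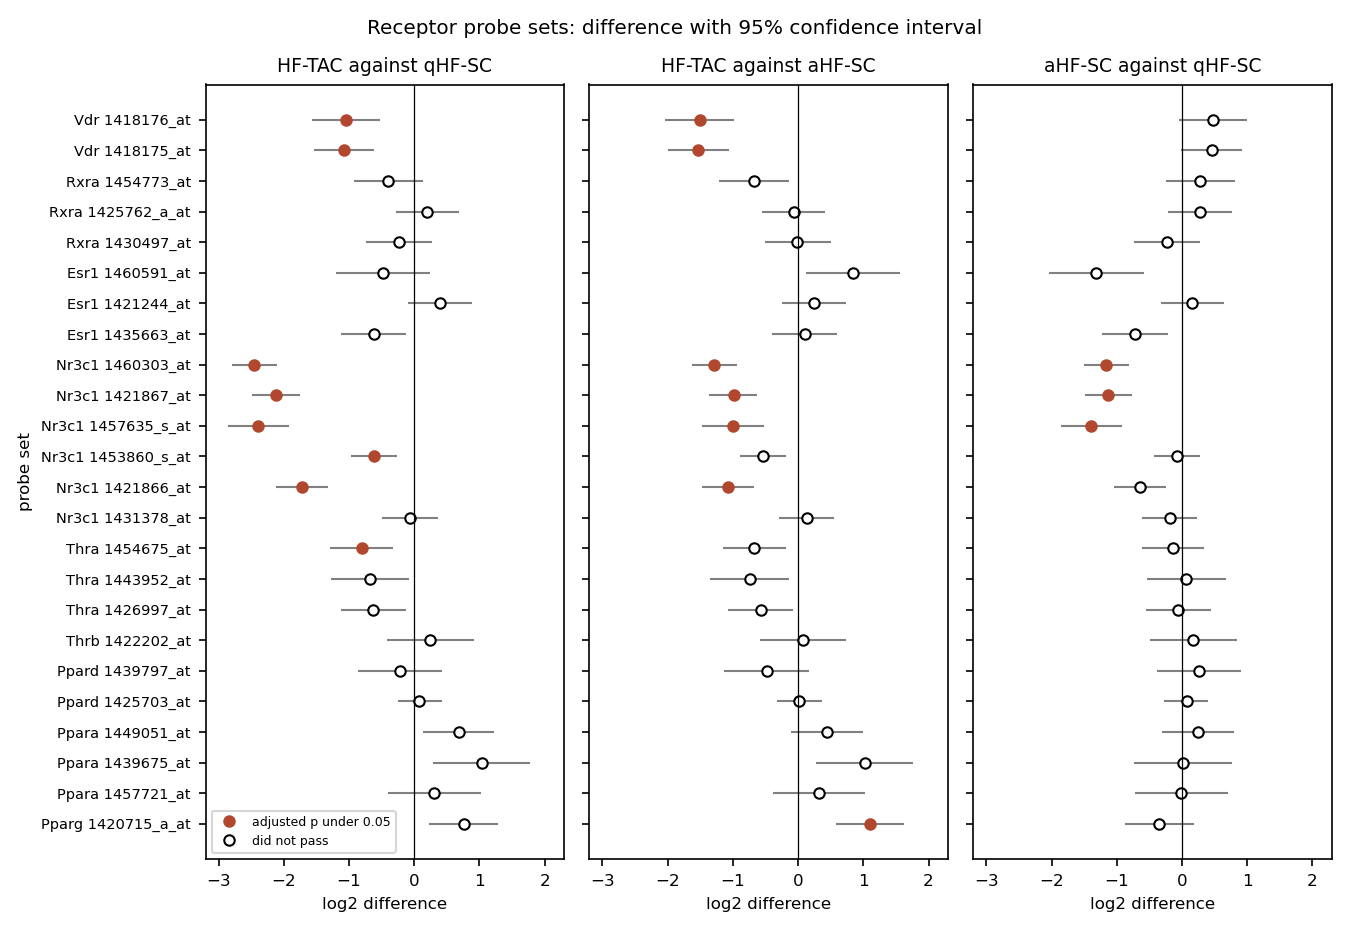
Log2 difference (horizontal axis) of each of the 24 receptor probe sets (rows) in HF-TAC against qHF-SC, HF-TAC against aHF-SC and aHF-SC against qHF-SC. Points are limma estimates from 2 arrays a group, bars are 95% confidence intervals, and filled points passed an adjusted p of 0.05. Both Vdr probe sets are filled in the 2 HF-TAC panels, and in the stem cell panel 3 of the 6 Nr3c1 probe sets are.

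Enzymes that make or break down receptor ligands, and transporters that bring them in, were then read from lists. Beside these and all later list counts, 16.3% of all genes were called in HF-TAC against aHF-SC. The shares were 25.7% in HF-TAC against qHF-SC and 6.3% in aHF-SC against qHF-SC. Of 7 measured genes of vitamin D metabolism, 1 rose and 1 fell in HF-TAC against aHF-SC, 2 rose and 1 fell in HF-TAC against qHF-SC, and 1 rose in aHF-SC against qHF-SC. In that order 4, 5 and 4 of the 7 were at background in both groups. Cyp2r1, which rose in both HF-TAC comparisons, was at background throughout, with 11.6 and 9.84 in HF-TAC, 6.01 and 5.5 in aHF-SC and 7.31 and 6.34 in qHF-SC. Cyp27b1, the enzyme that makes the active hormone, had 17.5 and 16.3 in HF-TAC, 77.6 and 90.3 in aHF-SC and 35.2 and 23.8 in qHF-SC. Only the aHF-SC arrays were above background. Cyp27b1 fell by 2.31 ± 0.21 in HF-TAC against aHF-SC (adjusted p = 0.000797) and rose by 1.53 ± 0.21 in aHF-SC against qHF-SC (adjusted p = 0.0104). That rise was 1.25 (adjusted p = 0.0672) without qHF-SC replicate 2 and 1.42 (adjusted p = 0.0596) without aHF-SC replicate 2. Setting values under 32 to 32 gave -1.39 for the fall (adjusted p = 0.00568) and 1.32 for the rise (adjusted p = 0.0212). The call in HF-TAC against qHF-SC, where both groups were at background, was then lost (-0.07, adjusted p = 0.722). Cyp24a1, which inactivates the hormone and was named after its values were seen, was at background on every array.

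Of 8 measured genes that carry or convert thyroid hormone, 2 rose in HF-TAC against aHF-SC and 3 against qHF-SC, and 2 rose in aHF-SC against qHF-SC, with no falls. Slc16a10, a carrier of aromatic amino acids and thyroid hormone, had 236 and 260 in HF-TAC, 40.1 and 42.7 in aHF-SC and 42.9 and 34.4 in qHF-SC. Slc7a5, a large amino acid carrier that also takes up thyroid hormone, had 613 and 1015 in HF-TAC, 210 and 181 in aHF-SC and 175 and 227 in qHF-SC. In both genes the HF-TAC arrays stood clear of all stem cell arrays. Slc16a10 rose by 2.58 ± 0.17 in HF-TAC against aHF-SC (adjusted p = 0.000232) and Slc7a5 by 2.02 ± 0.26 (adjusted p = 0.00267). Averaged over its 4 probe sets, Slc16a10 rose by 1.40. Crym, which binds thyroid hormone in the cytosol, had 57.7 and 79.7 in HF-TAC, 45.0 and 38.8 in aHF-SC and 21.2 and 20.1 in qHF-SC, and rose by 1.72 ± 0.19 in HF-TAC against qHF-SC (adjusted p = 0.000781), or by 1.08 with values under 32 set to 32 (adjusted p = 0.0122).

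Of 14 measured genes of steroid metabolism, 2 rose in HF-TAC against aHF-SC, 3 rose and 1 fell against qHF-SC, and 1 fell in aHF-SC against qHF-SC. Akr1c18, which inactivates progesterone in the mouse, had 1139 and 417 in HF-TAC, 39.0 and 45.8 in aHF-SC and 288 and 267 in qHF-SC. It rose by 4.03 ± 0.40 in HF-TAC against aHF-SC (adjusted p = 0.00111), and by 3.30 without HF-TAC replicate 1 and 4.75 without HF-TAC replicate 2. Of 14 measured fatty acid carriers and uptake genes, 5 rose and 1 fell in HF-TAC against aHF-SC and 4 rose and 1 fell against qHF-SC. Fabp5, which delivers fatty acids to Ppard, had 18630 and 20230 in HF-TAC, 9892 and 8694 in aHF-SC and 4791 and 3746 in qHF-SC. Its arrays formed 3 separate steps, and it rose by 2.20 ± 0.17 in HF-TAC against qHF-SC (4.58-fold, adjusted p = 0.000185). Slc27a3, an acyl-CoA synthetase of the fatty acid transport family, had 31.6 and 34.7 in HF-TAC, 165 and 314 in aHF-SC and 180 and 203 in qHF-SC, and fell by 2.78 ± 0.28 in HF-TAC against aHF-SC (adjusted p = 0.00115).

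Of 20 measured coactivators and corepressors, 2 rose in HF-TAC against aHF-SC, 2 rose and 1 fell in HF-TAC against qHF-SC, and 1 rose and 1 fell in aHF-SC against qHF-SC. The median differences were 0.04, -0.05 and -0.14 in that order. Bcl6, a repressor that recruits the same corepressors as unliganded receptors, had 343 and 285 in HF-TAC, 265 and 306 in aHF-SC and 770 and 820 in qHF-SC. It fell by 1.34 ± 0.16 in HF-TAC against qHF-SC (adjusted p = 0.00117) and fell by 1.48 ± 0.16 in aHF-SC against qHF-SC (adjusted p = 0.00553), which was -1.43 (adjusted p = 0.0628) without qHF-SC replicate 2. Prmt1, an arginine methyltransferase that acts as a coactivator, had 1065 and 1479 in HF-TAC, 730 and 794 in aHF-SC and 434 and 406 in qHF-SC, and rose by 1.58 ± 0.19 in HF-TAC against qHF-SC (adjusted p = 0.00104). Hr, the hairless corepressor of Vdr and the thyroid hormone receptors, whose loss is known to leave mice bald, was named after its values were seen. It had 246 and 302 in HF-TAC, 361 and 847 in aHF-SC and 666 and 564 in qHF-SC, with HF-TAC lowest, and passed in no comparison (-1.17 in HF-TAC against qHF-SC, adjusted p = 0.0567).

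Known targets of the glucocorticoid receptor included genes with high levels in quiescent stem cells, the group with the most Nr3c1. Of 18 targets measured, 0 rose and 6 fell in HF-TAC against qHF-SC, 2 rose and 2 fell in HF-TAC against aHF-SC, and 1 rose and 4 fell in aHF-SC against qHF-SC. Among all genes 25.7%, 16.3% and 6.3% were called in that order. The median differences were -0.37, -0.35 and -0.53, beside -0.01, -0.01 and 0.00 over all genes. Tsc22d3, the glucocorticoid-induced leucine zipper gene, had 229 and 142 in HF-TAC, 343 and 233 in aHF-SC and 2277 and 6137 in qHF-SC. Zbtb16, a zinc finger repressor induced by glucocorticoids in many tissues, had 40.1 and 26.7 in HF-TAC, 75.9 and 49.9 in aHF-SC and 596 and 1027 in qHF-SC. In both genes the qHF-SC arrays were several-fold above the other 4, and the 2 qHF-SC arrays themselves differed. Tsc22d3 fell by 4.37 ± 0.45 in HF-TAC against qHF-SC (adjusted p = 0.000569) and fell by 3.72 ± 0.45 in aHF-SC against qHF-SC (adjusted p = 0.00723). Zbtb16 fell by 4.58 ± 0.33 (adjusted p = 0.000115) and fell by 3.67 ± 0.33 (adjusted p = 0.00272) in the same comparisons.

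The size of the Tsc22d3 fall depended on the arrays and probe sets used. In aHF-SC against qHF-SC it was -4.44 without qHF-SC replicate 1, -3.01 without qHF-SC replicate 2 and -2.02 for the mean of its 4 probe sets, and the same 3 settings gave -5.09, -3.66 and -2.39 in HF-TAC against qHF-SC. For the mean of its 3 probe sets, Zbtb16 fell by 3.89 in HF-TAC and fell by 3.07 in aHF-SC, both against qHF-SC. Per1, a clock gene that glucocorticoids induce, had 213 and 114 in HF-TAC, 174 and 219 in aHF-SC and 603 and 816 in qHF-SC. It fell by 2.17 ± 0.30 in HF-TAC against qHF-SC (adjusted p = 0.00211), and fell by 1.84 ± 0.30 in aHF-SC against qHF-SC (adjusted p = 0.0181), a call lost without any 1 of those 4 arrays (-2.06 to -1.63, adjusted p 0.0543 to 0.148). Klf9, a target of both the glucocorticoid and thyroid hormone receptors, had 737 and 227 in HF-TAC, 1075 and 729 in aHF-SC and 1776 and 2577 in qHF-SC. It fell by 2.39 ± 0.50 in HF-TAC against qHF-SC (adjusted p = 0.0125). Leaving out HF-TAC replicate 1 gave -3.24, leaving out HF-TAC replicate 2 gave -1.54, and leaving out qHF-SC replicate 2 gave -2.12 with an adjusted p of 0.0965.

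Other targets of the same receptor did not follow this order. Fkbp5, a chaperone induced by glucocorticoids, had 207 and 273 in HF-TAC, 94.6 and 96.3 in aHF-SC and 252 and 721 in qHF-SC, so that HF-TAC was above aHF-SC on every array. It fell by 2.16 ± 0.42 in aHF-SC against qHF-SC (adjusted p = 0.0327), and this was lost without qHF-SC replicate 2 (-1.40, adjusted p = 0.0699), aHF-SC replicate 1 (-2.14, adjusted p = 0.133) or aHF-SC replicate 2 (-2.17, adjusted p = 0.135), was -2.92 without qHF-SC replicate 1, and was -0.76 (adjusted p = 0.0929) for the mean of its 3 probe sets. Sgk1, a kinase induced by corticosteroids, had 3271 and 2779 in HF-TAC, 5872 and 7124 in aHF-SC and 5343 and 6652 in qHF-SC. It fell by 0.98 ± 0.19 in HF-TAC against qHF-SC (adjusted p = 0.00806), while its aHF-SC and qHF-SC arrays overlapped. Mt2, a metallothionein, had 15530 and 16330 in HF-TAC, 4506 and 2338 in aHF-SC and 6886 and 12730 in qHF-SC, and rose by 2.29 ± 0.36 in HF-TAC against aHF-SC (adjusted p = 0.0062). Dusp1, which is on this list and on that of dissociation genes and was named after its values were seen, passed in no comparison (adjusted p 0.088 to 0.791).

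**Figure D4:**
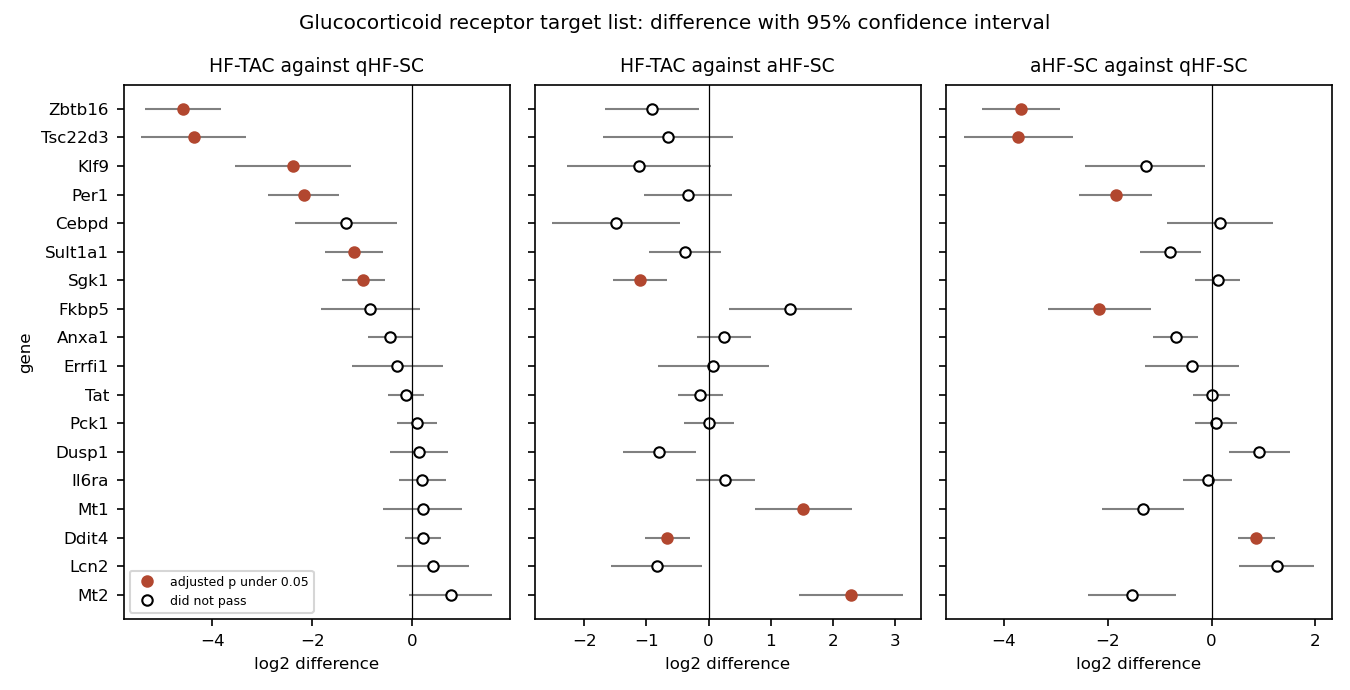
Log2 difference (horizontal axis) of the 18 measured glucocorticoid receptor targets (rows, ordered by the left panel) in HF-TAC against qHF-SC, HF-TAC against aHF-SC and aHF-SC against qHF-SC. Points are limma estimates from 2 arrays a group, bars are 95% confidence intervals, and filled points passed an adjusted p of 0.05. Zbtb16 and Tsc22d3 lie below -3 in both panels against qHF-SC, and Mt2 is the highest filled point against aHF-SC.

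Of 11 measured vitamin D receptor targets, 1 rose in HF-TAC against aHF-SC, where 16.3% of all genes were called, 1 rose and 1 fell in HF-TAC against qHF-SC, where 25.7% were, and 0 passed in aHF-SC against qHF-SC by limma, where 0 also had an unadjusted p under 0.05. In that comparison 7 of the 11 were at background in both stem cell groups. Thbd, which encodes thrombomodulin, had 345 and 196 in HF-TAC, 30.6 and 32.1 in aHF-SC and 42.8 and 46.6 in qHF-SC. It rose by 3.05 ± 0.25 in HF-TAC against aHF-SC (adjusted p = 0.000584), the group pair in which Vdr fell, or by 3.02 with values under 32 set to 32. Trpv6, a calcium channel, had 23.5 and 22.4 in HF-TAC, 30.7 and 43.7 in aHF-SC and 50.9 and 48.0 in qHF-SC, and fell by 1.11 ± 0.19 in HF-TAC against qHF-SC (adjusted p = 0.00552), while the difference was -0.63 with values under 32 set to 32 (adjusted p = 0.0441). Of 13 thyroid hormone receptor targets, 1 rose in HF-TAC against aHF-SC, 3 rose and 1 fell in HF-TAC against qHF-SC, and 1 rose in aHF-SC against qHF-SC.

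Of 30 measured Ppar targets, 3 rose and 3 fell in HF-TAC against aHF-SC, 6 rose and 1 fell in HF-TAC against qHF-SC, and 4 rose and 0 fell in aHF-SC against qHF-SC. Among all genes 16.3%, 25.7% and 6.3% were called in that order. Vnn1, a pantetheinase induced through Ppara in liver, had 25.9 and 20.1 in HF-TAC, 122 and 80.6 in aHF-SC and 17.0 and 10.8 in qHF-SC. Only aHF-SC was above background. Vnn1 fell by 2.12 ± 0.28 in HF-TAC against aHF-SC (adjusted p = 0.00317) and rose by 2.87 ± 0.28 in aHF-SC against qHF-SC (adjusted p = 0.00369). With values under 32 set to 32, all HF-TAC and qHF-SC arrays were equal, and the fall and the rise were each by 1.63. Angptl4, a lipase inhibitor and target of all 3 Ppar receptors, had 242 and 116 in HF-TAC, 1186 and 591 in aHF-SC and 204 and 296 in qHF-SC. Both aHF-SC arrays were above all others. Angptl4 fell by 2.32 ± 0.42 in HF-TAC against aHF-SC (adjusted p = 0.0116), which was -1.82 (adjusted p = 0.0599) without aHF-SC replicate 1 and -1.19 for the mean of its 2 probe sets. Hadha, a subunit of the mitochondrial fatty acid oxidation enzyme, had 690 and 684 in HF-TAC, 618 and 599 in aHF-SC and 332 and 299.7 in qHF-SC, and rose by 1.12 ± 0.14 in HF-TAC against qHF-SC (adjusted p = 0.0014).

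Of 13 measured oestrogen receptor targets, 1 rose and 2 fell in HF-TAC against aHF-SC, 4 rose and 2 fell in HF-TAC against qHF-SC, and 3 rose in aHF-SC against qHF-SC. The shares called over all genes were 16.3%, 25.7% and 6.3% in that order. Igfbp4, an insulin-like growth factor binding protein, had 1919 and 911 in HF-TAC, 6536 and 6707 in aHF-SC and 3077 and 2548 in qHF-SC, and fell by 2.32 ± 0.32 in HF-TAC against aHF-SC (adjusted p = 0.00344). Cxcl12, a chemokine, had 724 and 658 in HF-TAC, 2374 and 2106 in aHF-SC and 2219 and 1934 in qHF-SC. It fell by 1.70 ± 0.16 in HF-TAC against aHF-SC (adjusted p = 0.000857), and fell by 1.02 for the mean of its 3 probe sets. Myb, a transcription factor of dividing progenitors, had 404 and 824 in HF-TAC, 22.7 and 23.7 in aHF-SC and 9.60 and 13.2 in qHF-SC, and rose by 4.64 ± 0.32 in HF-TAC against aHF-SC (adjusted p = 0.000295), or by 4.17 with values under 32 set to 32.

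The genes most alike in pattern were taken as the 3 with the smallest root mean square distance of mean-centred log2 values over the 6 arrays. For Vdr these were Hoxc4 (distance 0.099), Ak4 (0.13) and Gpx8 (0.131). Ak4, a mitochondrial adenylate kinase, had 380 and 402 in HF-TAC, 1134 and 1171 in aHF-SC and 986 and 735 in qHF-SC. For Nr3c1 they were Zfp867 (0.07), Ptprk (0.121) and Palmd (0.133). Ptprk, a receptor tyrosine phosphatase, had 78.2 and 97.5 in HF-TAC, 260 and 224 in aHF-SC and 522 and 498 in qHF-SC. For Thra they were Tpst2 (0.085), Zfp688 (0.091) and Tmem108 (0.094), and for Pparg they were Prss27 (0.093), Maoa (0.109) and Epb41l2 (0.118). Maoa, the monoamine oxidase, had 362 and 209 in HF-TAC, 163 and 134 in aHF-SC and 175 and 195 in qHF-SC, with HF-TAC replicate 1 the highest as for Pparg. These distances describe 6 arrays and were not tested.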

How the data were processed

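RNA of 3 sorted mouse cell populations was measured on Affymetrix arrays, 2 per group, from 2 µg of total RNA per array. The deposited values are probe set intensities on a linear scale (3.83 to 31188.2), and RMA is named without a version per the submitters' processing notes. Its role and settings are not given in the sources at hand. RMA usually corrects background, equalises the arrays' distributions and summarises probes on the log2 scale, which compresses large differences and dim signals. Array medians lay between 22.8 and 24.0. With arrays it is their number, here 2 a group, that sets the precision.

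Of 45101 probe sets, 64 controls were left out. The remaining 45037 had 1 platform gene symbol (34945), several (932) or none (9160). Log2 intensities of all 6 arrays were fitted as 3 group means with limma 3.58.1 (R 4.3.3; lmFit, contrasts.fit, eBayes; 3 residual and 4.64 prior degrees of freedom), with Benjamini-Hochberg adjustment over all probe sets in each comparison. The fit was tested on simulated data. Genes were counted through the probe set with the highest mean. Levels of different probe sets were not compared.

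From each list of ligand enzymes, coregulators and targets, the genes named are up to 4 past the threshold with the largest change per comparison, or, with fewer than 2 past it, the 2 of smallest p. Not every gene the rule allows is named. The receptors and the lists were chosen with earlier results of these data known. The lists share some members. Whether replicate numbers pair the arrays is not labelled. Deviations of same-numbered arrays correlated at 0.133, -0.0799 and 0.0657 for HF-TAC against aHF-SC, HF-TAC against qHF-SC and aHF-SC against qHF-SC. At 2 arrays a group these values cannot exclude a pairing. The alternatives were other scalings, a floor of 32, a filter on dim probe sets, other uses of a gene's probe sets, a replicate block, a trended robust prior, fits of 2 groups and each array left out.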

Additional observations from a re-analysis of the deposited data

How the results depend on the processing

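No called receptor difference changed sign under the alternatives run. The 16 sign changes were of differences that did not pass, each with 1 array left out. In HF-TAC against aHF-SC these went from -0.33 to 0.19 for Rxra (1425762_a_at) and from -0.27 to 0.43 for Thrb. In HF-TAC against qHF-SC they went from -0.97 to 0.01 for Esr1 (1460591_at) and from -0.08 to 0.58 for Thrb. In aHF-SC against qHF-SC they went from -0.08 to 0.64 for Rxra (1454773_at), from -0.36 to 0.08, -0.31 to 0.43 and -0.35 to 0.23 for Thra (1454675_at, 1443952_at, 1426997_at), from -0.17 to 0.52 for Thrb, from -0.20 to 0.72 for Ppard and from -0.25 to 0.28 for Ppara (1439675_at). Without 1 array, the receptor probe sets called numbered 6 to 10 in HF-TAC against aHF-SC, 5 to 9 in HF-TAC against qHF-SC and 0 to 3 in aHF-SC against qHF-SC, with the lowest counts of the last 2 without qHF-SC replicate 1 and qHF-SC replicate 2.

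Over all probe sets, leaving out 1 array moved the calls to 2573 to 4503 of 5157, to 5342 to 7702 of 9062 and to 201 to 1121 of 2259, in the same order of comparisons. Fewer features were tested with 1 probe set per gene (3191, 4790 and 1142 calls) and with the mean of a gene's probe sets (2947, 4446 and 984 calls). A floor of 32 left 1142 calls in aHF-SC against qHF-SC. That fit left out 22722 probe sets at the floor on all arrays, and 18 of the 24 receptor probe sets remained. Its prior degrees of freedom were 2.04, and the cause of the lower count was not tested. As pairing by replicate number is not labelled, the replicate block was only an alternative: it gave 5045, 9087 and 2248 calls over all probe sets and 8, 11 and 4 over the receptors. For Esr1, Thrb and Pparg, dim on all arrays, signal over background limits what can be read.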

Other observations

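Among 35 other measured nuclear receptors, 22 were at background in both groups in HF-TAC against qHF-SC. In HF-TAC against aHF-SC 0 rose and 1 fell, where 16.3% of all genes were called. In HF-TAC against qHF-SC 3 rose and 3 fell, where 25.7% were called, and in aHF-SC against qHF-SC 2 rose and 3 fell, where 6.3% were called. Nr1d2, a haem-binding repressor of the circadian clock, had intensities of 265 and 251 in HF-TAC, 230 and 146 in aHF-SC and 2416 and 2570 in qHF-SC. It fell by 3.27 ± 0.22 in HF-TAC (adjusted p = 9.68e-05, limma) and fell by 3.77 ± 0.22 in aHF-SC (adjusted p = 0.000643), each against qHF-SC. For the mean of its 2 probe sets Nr1d2 fell by 1.89 in HF-TAC and fell by 2.18 in aHF-SC. Rora, a receptor that activates the clock elements Nr1d2 represses, had 100.3 and 66.9 in HF-TAC, 130 and 126 in aHF-SC and 302 and 288 in qHF-SC, and fell by 1.85 ± 0.20 in HF-TAC against qHF-SC (adjusted p = 0.000758). For the mean of its 9 probe sets Rora fell by 1.22. Nr4a1, an orphan receptor and immediate early gene, ran the other way, with 2849 and 1871 in HF-TAC, 2528 and 3665 in aHF-SC and 392 and 394 in qHF-SC. It rose by 2.56 ± 0.25 in HF-TAC (adjusted p = 0.000433) and by 2.95 ± 0.25 in aHF-SC (adjusted p = 0.00225), each against qHF-SC. Nr4a1 is also on the list of 18 dissociation genes, of which 12 rose in each of these comparisons, and their part in its rise was not tested.

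Chaperones hold steroid receptors ready for their ligand. Of 9 measured, 3 rose and 1 fell in HF-TAC against qHF-SC and 2 rose in HF-TAC against aHF-SC, while 1 fell in aHF-SC against qHF-SC. The shares called over all genes were 25.7%, 16.3% and 6.3% in that order. Stip1, which hands receptors from Hsp70 to Hsp90, had 637 and 831 in HF-TAC, 373 and 443 in aHF-SC and 259 and 259 in qHF-SC. It rose by 1.49 ± 0.18 in HF-TAC against qHF-SC (2.81-fold, adjusted p = 0.00113, limma). Fkbp4, an Hsp90 partner of steroid receptors, had 1193 and 1584 in HF-TAC, 695 and 956 in aHF-SC and 538 and 564 in qHF-SC, and rose by 1.32 ± 0.21 in HF-TAC against qHF-SC (adjusted p = 0.00382). For the mean of its 3 probe sets Fkbp4 differed by 0.45 with an adjusted p of 0.0515.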
